A study of Rattus norvegicus with 63 samples.

Results

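Among rat kidney libraries collected after an injection of methylprednisolone, 6 stood out by a high signal of Fga, which encodes the alpha chain of fibrinogen, and are called Fga-high here. They were chosen by an intensity above 1000 for the brighter of the 2 Fga probe sets, at any time other than 2 and 4 h, where most libraries had a high signal. The 6 are 0.25 h replicate 2, 0.5 h replicate 3, 1 h replicate 2, 5 h replicate 2, 7 h replicate 3 and 8 h replicate 1, out of 52 libraries on the main array type. Each is set against the other 2 libraries of its own time, 12 in all, so that elapsed time is the same on both sides. Total RNA from whole kidney was hybridised to Affymetrix expression arrays, on which a set of short probes measures one transcript. All 18 libraries come from rats given methylprednisolone, a synthetic glucocorticoid, at 0.25, 0.5, 1, 5, 7 or 8 h before sampling, and 4 libraries at 0 h received no treatment. The labels used here name no dose, strain, sex, age or hour of day. They do not say that numbered samples are separate animals, so each p-value rests on the spread between samples alone, and that spread may be technical.

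Fibrinogen is a plasma protein made mainly by the liver, and its genes belong to the acute phase response, in which interleukin-6 acts through STAT3 and C/EBP factors, and interleukin-1 and TNF act through NF-kappaB. In the kidney, Lcn2 and Havcr1 are widely used as transcripts of injured tubules, and Cxcl1 encodes a chemokine that draws neutrophils. Glucocorticoids induce genes such as Fkbp5 and Tsc22d3 through their receptor, restrain many inflammatory genes and act together with interleukin-6 on several acute phase genes.

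Because Fga chose the libraries, its own levels are given as a description. In order of time the Fga-high libraries had signals of 1579, 2207, 2136, 4459, 3999 and 2652, and the other 12 libraries had 30.3 to 616. The member nearest to the threshold is 0.25 h replicate 2, at 1579. Just outside it lay 6 h replicate 1 at 778 and 0.25 h replicate 1 at 616, and the latter serves as one of the 12 comparison libraries. At 2 h the signals were 2139, 523 and 2509, and at 4 h 2149, 1863 and 2041.

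The sequences upstream of the 4 marker genes are shown because interleukin-6 and NF-kappaB signalling are textbook routes to acute phase genes. Each is the 250 bases before the annotated start in RefSeq, assembly GRCr8, written 5′ to 3′ on the gene's strand. Capitals mark matches on either strand to CTGGGAA, the core of the classical type II interleukin-6 response element, to TTCNNNGAA, a STAT site, or to the NF-kappaB consensus. Fgg lies at chr2:170652833-170653082 on the plus strand, Lcn2 at chr3:36081781-36082030 on the minus strand, Cxcl1 at chr14:17479322-17479571 on the minus strand and Havcr1 at chr10:31629528-31629777 on the plus strand.
Fgg: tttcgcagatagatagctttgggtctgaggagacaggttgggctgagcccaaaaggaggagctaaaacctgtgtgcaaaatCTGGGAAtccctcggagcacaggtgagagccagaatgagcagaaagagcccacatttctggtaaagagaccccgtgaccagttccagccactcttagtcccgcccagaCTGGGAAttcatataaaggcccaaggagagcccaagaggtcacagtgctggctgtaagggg
Lcn2: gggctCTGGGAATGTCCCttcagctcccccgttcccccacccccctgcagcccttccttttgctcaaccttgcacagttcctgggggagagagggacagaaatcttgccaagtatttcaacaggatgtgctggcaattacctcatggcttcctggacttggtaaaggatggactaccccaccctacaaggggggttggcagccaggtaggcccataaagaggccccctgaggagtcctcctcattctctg
Cxcl1: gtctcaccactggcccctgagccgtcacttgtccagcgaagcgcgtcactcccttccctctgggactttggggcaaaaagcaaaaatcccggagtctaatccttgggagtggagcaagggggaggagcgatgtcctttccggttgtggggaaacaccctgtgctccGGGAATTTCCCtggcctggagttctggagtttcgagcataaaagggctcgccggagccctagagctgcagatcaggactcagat
Havcr1: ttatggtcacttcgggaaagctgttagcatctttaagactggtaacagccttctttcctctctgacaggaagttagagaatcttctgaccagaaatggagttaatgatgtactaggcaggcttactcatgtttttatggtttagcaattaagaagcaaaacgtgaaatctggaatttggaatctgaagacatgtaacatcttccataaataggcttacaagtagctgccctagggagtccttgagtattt

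Fgg held CTGGGAA at 2 places, 169 to 163 and 61 to 55 bases before the start. In Lcn2 the same motif, 245 to 239 bases before the start, overlapped an NF-kappaB match at 242 to 233 bases. Cxcl1 held 2 overlapping NF-kappaB matches between 84 and 74 bases before the start, and the letters searched are not in the Havcr1 window. Of 27457 such windows in the RefSeq table, 9.33% held CTGGGAA, 7.52% TTCNNNGAA and 6.41% an NF-kappaB match. Of the 474 genes with a higher call described below, 397 matched a window, and 9.32%, 6.3% and 12.3% of these held the 3 motifs, against 8.95%, 5.69% and 8.08% of the 5977 matched genes among all those tested. Among the 20 genes with the largest increases, 17 matched a window. NF-kappaB matches were found in Lcn2, Cxcl10, Cxcl2 and Ubd, CTGGGAA in Fgg, Lcn2 and S100a9, and TTCNNNGAA in 0 of the 17. Of the 12 genes with the largest decreases 11 matched a window, of which 5 held TTCNNNGAA, 2 CTGGGAA and 1 an NF-kappaB match, so CTGGGAA was as frequent there (18.2%) as among the increases (17.6%). Of 463 matched genes among all lower ones, 8.64%, 5.83% and 6.7% held CTGGGAA, TTCNNNGAA and an NF-kappaB match. A match is a description of letters and no evidence of binding.

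The 6 libraries differed from their time-mates in many genes besides Fga. Values are intensities as deposited, group means are taken on the log2 scale and turned back to intensities, and differences are in log2(intensity + 7.55), Fga-high minus the other libraries of the same time, with their standard error (6 libraries against 12). Of 9518 probe sets tested with limma, 1227 passed an adjusted p of 0.05 (12.9%), 581 higher (6.1%) and 646 lower (6.79%), from 474 and 533 genes, and 2696 had an unadjusted p under 0.05 (28.3%). The median difference of all tested probe sets was -0.06. A call says that a probe set goes with Fga across libraries that Fga chose, and it is no test of the treatment. Of the 581 higher probe sets, 16 had a mean below the filter on dim probe sets (a mean log2 level of 5.904) in the other 46 libraries and were tested only through the 6. They include Cxcl1, Cxcl2, Ccl3, S100a9, Rasd1, Ifit3 and the dimmer probe set of Cebpd, so for these a difference was needed to be tested at all. In whole kidney, fewer cells of a type and less RNA per cell cannot be told apart.

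The count rests unevenly on the libraries. Without 5 h replicate 2, 347 probe sets were higher and 202 lower, and without 7 h replicate 3 the counts were 406 and 287. Leaving out any other of the 18 gave 475 to 639 higher and 442 to 723 lower, and no library left out ended the call of any of the 32 genes named below as the largest changes. Array medians and 3′ to 5′ ratios overlapped between the groups: array medians were 72.9 to 79.8 in the Fga-high libraries and 70.3 to 83.3 in the others, and 3′ to 5′ signal ratios were 1.05 to 1.26 and 0.976 to 1.34 for the Gapdh controls and 1.14 to 1.92 and 1.14 to 2.09 for actin. Single libraries stood apart in other controls. The 5S rRNA probe set had 48.9 in 5 h replicate 2 and 30 in 8 h replicate 1, above the 8.7 to 28.2 of the comparison libraries, and the bioB spike-in had 43.5 in 0.25 h replicate 2, below their 74.6 to 131. Their part in the results was not tested.

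Fgg, the fibrinogen gamma chain, was higher at every time. In order of time its signal was 336, 287, 268, 4163, 4626 and 3035 in the Fga-high libraries, and 6.21 to 72.7 in the other 12 (median 31.8). The groups did not overlap, and the 3 late Fga-high libraries were about an order of magnitude above the 3 early ones. The difference was 4.88 ± 0.55, 29.5-fold (limma adjusted p = 5.5e-05). Untreated kidneys at 0 h had 5.04 to 40.9, and the 2 h libraries 524 to 823.

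Lcn2, which encodes a siderophore-binding protein, had signals of 805, 694, 1209, 3970, 3122 and 3158 at the same 6 times, in that order, against 55.1 to 268 in the other libraries. Here too no comparison library reached the lowest Fga-high one. Its difference, 3.44 ± 0.25 or 10.9-fold, had the smallest standard error of the 4 markers (adjusted p = 1.82e-06).

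Cxcl1 behaved differently at 0.5 h. Its Fga-high signals were 2545, 1950, 3101, 244, 863 and 465.5 in order of time. At 0.5 h the other libraries had 1876 and 2034, as high as the Fga-high one, while at the remaining 5 times the others lay between 2.12 and 88. The groups therefore overlapped, and the Fga-high library was above both others at 5 of 6 times (4.37 ± 0.63, adjusted p = 0.000396). Its mean log2 level in the other 46 libraries was 5.5, below the filter, and in the fit without the filter the adjusted p was 0.000628.

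Havcr1, which encodes kidney injury molecule 1, had 441, 574, 125, 1813, 2029 and 502 in the Fga-high libraries. The other libraries ranged from 17.1 to 613, and at 0.25 h and 1 h one of them exceeded the Fga-high library. That at 0.25 h is replicate 1, whose Fga signal of 616 was the highest of the 12 comparison libraries. Havcr1 was above both others at 4 of 6 times, with a difference of 2.81 ± 0.6 (adjusted p = 0.00586).

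**Figure D1:**
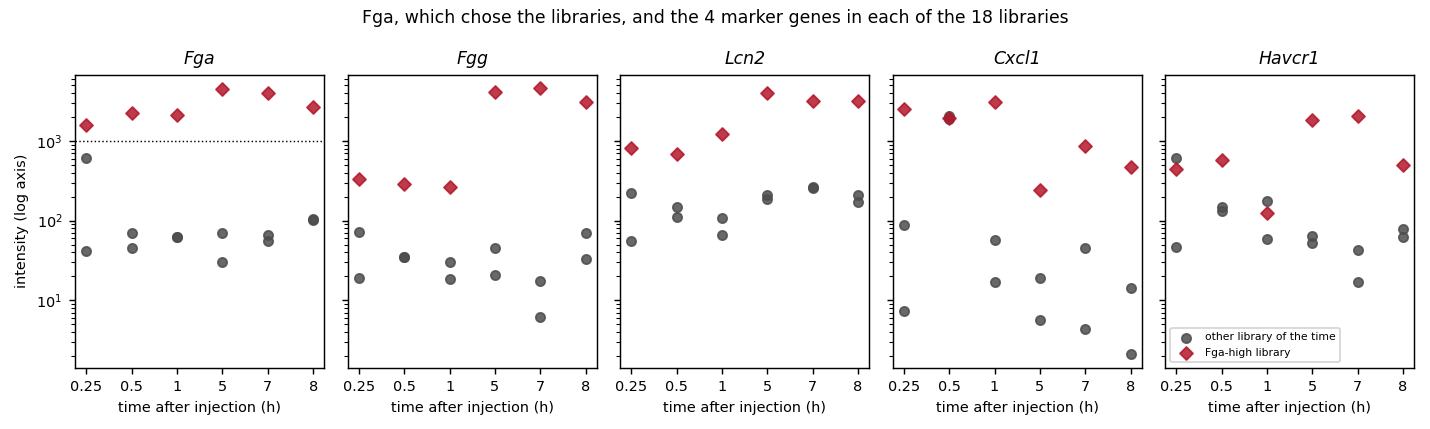
Intensity (log axis) of Fga and of the 4 marker genes in the 18 libraries, by time after injection in hours. Red diamonds are the Fga-high libraries, grey circles the other 2 libraries of each time, and the dotted line is the threshold of 1000 on Fga. Fgg and Lcn2 separate the groups at all 6 times, Cxcl1 at 5 and Havcr1 at 4.

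Acute phase genes were mostly dim in the kidney, while most complement genes on the array passed the filter. Of 17 acute phase genes listed, 15 were on the array and 4 passed the filter on dim probe sets: Fgg and Cp, the copper carrier ceruloplasmin (0.46 ± 0.13, adjusted p = 0.0318), were higher. The call of Cp was lost when any of 8 libraries was left out. Among members below the filter, Serpina3n, a serine protease inhibitor, had 986, 2371 and 1017 in the Fga-high libraries at 5, 7 and 8 h, but 99.1, 31.9 and 111 at 0.25, 0.5 and 1 h, against 15.4 to 44.8 in the others. Fitted without the filter its difference was 3.15 ± 0.59 (adjusted p = 0.00379). Those of haptoglobin (Hp) and Lbp, the lipopolysaccharide-binding protein, were 1.61 ± 0.33 and 1.26 ± 0.26. The other members below the filter did not pass in that fit. Fgb, the fibrinogen beta chain, had means of 41 in the Fga-high and 43.3 in the other libraries (-0.07 ± 0.21). Crp, Itih4, Hpx and Il1rn differed by -0.23, -0.28, 0.1 and 0.05, and A2m, Orm1 and Itih3 by 1.51, 0.82 and 0.81. Of 7 complement genes tested, 3 were higher. C3, the central complement component, had a mean signal of 620 against 141 (2.08 ± 0.34, adjusted p = 0.000835), Serping1, the C1 inhibitor, differed by 0.7 ± 0.17 and C1s, a protease of the classical pathway, by 0.39 ± 0.11. The median difference was 0.42 over the 4 acute phase genes and 0.39 over the 7 complement genes.

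Transcripts of injured tubules were among those that rose. Of 17 tested, 8 were higher and 0 lower, with a median of 0.53. Timp1, an inhibitor of matrix metalloproteinases, had 581, 547, 519, 670, 905 and 387 in order of time, against 61 to 288 in the others, with no overlap (2.26 ± 0.21, adjusted p = 1.11e-05). Spp1, which encodes osteopontin, differed by 1.68 ± 0.32, although 0.25 h replicate 1 had 4863 against 3989 in the Fga-high library of that time. Tnfrsf12a, the receptor of the cytokine TWEAK, differed by 1.68 ± 0.34, and the intermediate filament gene Vim by 0.65 ± 0.15. With each of the 18 libraries left out in turn, 8 or 9 members were higher.

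Chemokines and the interleukin-6 pathway were higher as well. Of 15 chemokine, cytokine and adhesion genes tested, 6 were higher and 1, Cxcl12, was lower (-0.81 ± 0.23), a call lost with any of 4 libraries left out. Without Cxcl1, Cxcl2 and Ccl3, which passed the filter only through the Fga-high libraries, 3 of 12 were higher. Ccl2, which attracts monocytes, had 1471, 1059, 1436, 111, 190 and 268 in the Fga-high libraries in order of time. As with Cxcl1, the 2 other libraries at 0.5 h were also high, at 857 and 989, and the rest lay between 6.42 and 222 (2.9 ± 0.43, adjusted p = 0.000496). Cxcl10, a ligand of the chemokine receptor CXCR3, differed by 2.65 ± 0.45. Cxcl2, another neutrophil chemokine, differed by 1.93 ± 0.34, and the adhesion molecule Icam1 by 1.76 ± 0.34.

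Il6 itself, which lay below the filter, had 1121, 702, 1008, 102, 88.2 and 32 in order of time, against 138.6 and 147.2 at 0.5 h and 6.26 to 42.3 in the remaining libraries. At each time the Fga-high library was the highest, and the early ones had several times the signal of the late ones. Fitted without the filter, Il6 differed by 3.21 ± 0.43 (adjusted p = 0.00037). In the interleukin-6 and STAT3 list, 6 of 10 tested genes were higher and 0 lower, with a median of 0.81. Il6st, the shared receptor subunit gp130, differed by 0.87 ± 0.13, and Stat3 by 1.18 ± 0.2. Socs3, the feedback inhibitor of that receptor, differed by 1.1 ± 0.22, but at 0.5 h it was lower in the Fga-high library (113) than in the others (148 and 123). Irf1, an interferon regulatory factor, differed by 1.76 ± 0.27.

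Of 13 tested genes of the NF-kappaB pathway, 8 were higher and 0 lower (median 0.7). Nfkbia, its inhibitor and also a glucocorticoid-induced gene, had a mean of 914 against 337 (1.42 ± 0.22), Myd88, an adaptor of Toll-like and interleukin-1 receptors, differed by 1.22 ± 0.14, and Birc3, an inhibitor of apoptosis, by 1.08 ± 0.21. This count fell to 4 without 0.25 h replicate 2. Immediate early and stress genes had the highest share of any list with at least 4 tested members. Here 10 of 13 were higher and 0 lower, with a median of 1.04. The list had 22 genes on the array, and the rest lay below the filter. Fitted without it, Atf3, Ier2 and Myc passed, at 2.6, 1.84 and 1.47. Fos, Fosb, Jund, Egr2, Nr4a2 and Nr4a3 did not, at 0.12, -0.02, 0.18, 0.75, -0.21 and -0.23. Egr1, a zinc-finger factor induced within minutes of many stimuli, had 2008, 1098, 1750, 633, 122 and 151 in order of time. The others ranged from 65.5 to 873, and at 0.5, 7 and 8 h the Fga-high library exceeded the mean of its time-mates by 0.4, 0.18 and 0.5 only (1.89 ± 0.43, adjusted p = 0.00852). Junb, a subunit of the AP-1 factor, differed by 1.7 ± 0.28, Gadd45b, a stress sensor, by 1.65 ± 0.31, and Klf6, a Krüppel-like factor, by 1.57 ± 0.24 with its brighter probe set and 1.86 ± 0.3 with the other.

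Interferon-responsive genes moved in the same direction: 8 of 13 tested were higher and 0 lower, and 7 of them were above both time-mates at every time. Leaving out Ifit3, which passed the filter only through the Fga-high libraries, 7 of 12 were higher. Psmb9, a subunit of the immunoproteasome, had 357, 239, 243, 403, 191 and 190 in the Fga-high libraries against 28.3 to 164 in the others, without overlap (1.63 ± 0.25, adjusted p = 0.00058). Gbp2, a guanylate-binding protein, differed by 2.02 ± 0.26, Psmb8 by 1.29 ± 0.15 and the antiviral gene Mx1 by 1.12 ± 0.18. Chaperones of the cytosol and the endoplasmic reticulum were higher in 10 of 20 cases and lower in 0 (median 0.46). Pdia4, a disulfide isomerase, differed by 1.12 ± 0.21, and Hspa5, the main chaperone of the endoplasmic reticulum, by 0.95 ± 0.13. In the list on metals, iron and heme 3 of 11 were higher and 2 lower, the latter 0 without 7 h replicate 3 and 3 without 1 h replicate 2. Hmox1, which degrades heme, had 202, 577, 167, 3417, 268 and 1777 in order of time against 64.1 to 274.5 in the others (2.37 ± 0.38, adjusted p = 0.000744), and without 5 h replicate 2 its difference was 1.79.

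**Figure D2:**
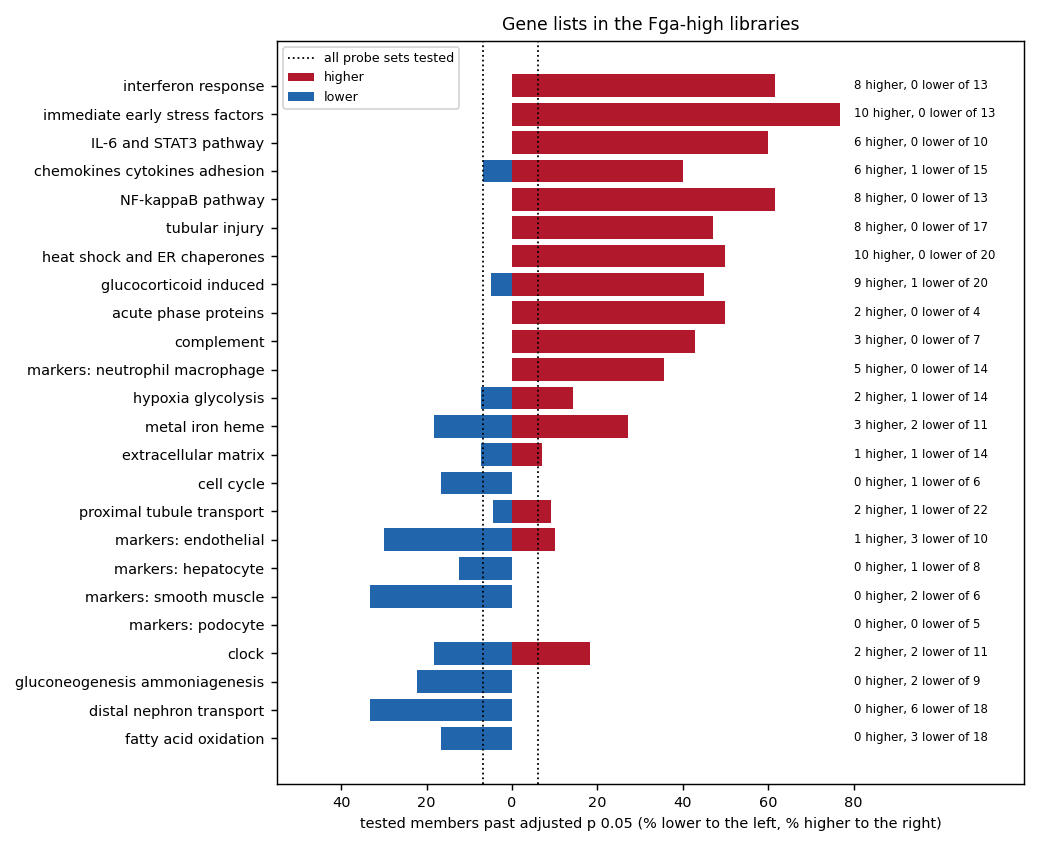
Percentage of the tested members of each gene list that passed an adjusted p of 0.05 in the Fga-high libraries, higher to the right and lower to the left, for lists with at least 4 tested members. Dotted lines mark the shares over all 9518 probe sets tested, 6.1% higher and 6.79% lower. Lists of inflammatory, interferon and stress genes extend to the right, and the distal nephron list extends to the left with 6 of 18 lower, against 1 of 18 without 5 h replicate 2.

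Genes known to be induced by glucocorticoids divided into groups. Fkbp5, a cochaperone of the glucocorticoid receptor, had a mean of 213 in the Fga-high libraries and 212 in their time-mates, with 53.4 at 0 h. Its difference was 0.01 ± 0.15, with a 95% interval of -0.32 to 0.33. Tsc22d3, which encodes the glucocorticoid-induced leucine zipper, had 802 and 828 (-0.05, interval -0.37 to 0.27), and the kinase Sgk1 2438 and 2459 (-0.01, interval -0.35 to 0.33). Both stood well above their 0 h means of 286 and 493.1. These intervals do not show that the levels were equal, but they leave out a change of 0.4 in either direction.

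Some other glucocorticoid-induced genes were far higher in the Fga-high libraries. Of 20 tested, 9 were higher and 1 lower, and 8 of 19 were higher without Rasd1, which passed the filter only through the Fga-high libraries. Per1, Ddit4, Klf9, Errfi1, Sds, Usp2 and Scnn1a were not called. Among the 9, Pdk4 and Cdkn1a differed by 0.5 to 0.71 and 0.62 to 0.85 with single libraries left out. Their calls were lost without any of 2 and any of 3 libraries. Angptl4, an inhibitor of lipoprotein lipase, had 1435, 819, 659, 1462, 1447 and 268 in order of time, against 414.5 in 0.25 h replicate 1 and 46.6 to 140 in the other 11. The difference was 3.23 ± 0.34 (adjusted p = 3.46e-05). Igfbp1, which binds insulin-like growth factors, had 2660, 4356, 3040, 6056, 5710 and 3423, and the other libraries 184 to 1274, without overlap (2.88 ± 0.34, adjusted p = 8.42e-05). Cebpb and Cebpd, transcription factors of the acute phase response, differed by 2.3 ± 0.21 and 1.86 ± 0.2, and Rasd1, a small GTPase induced by dexamethasone, by 2.58 ± 0.33. Sult1a1, a sulfotransferase, was the 1 lower member, with means of 288 and 547.5 (-0.91 ± 0.2, adjusted p = 0.00729) and a 0 h mean of 150. Several of the 9 higher genes are also known targets of cytokine and stress signals.

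**Figure D3:**
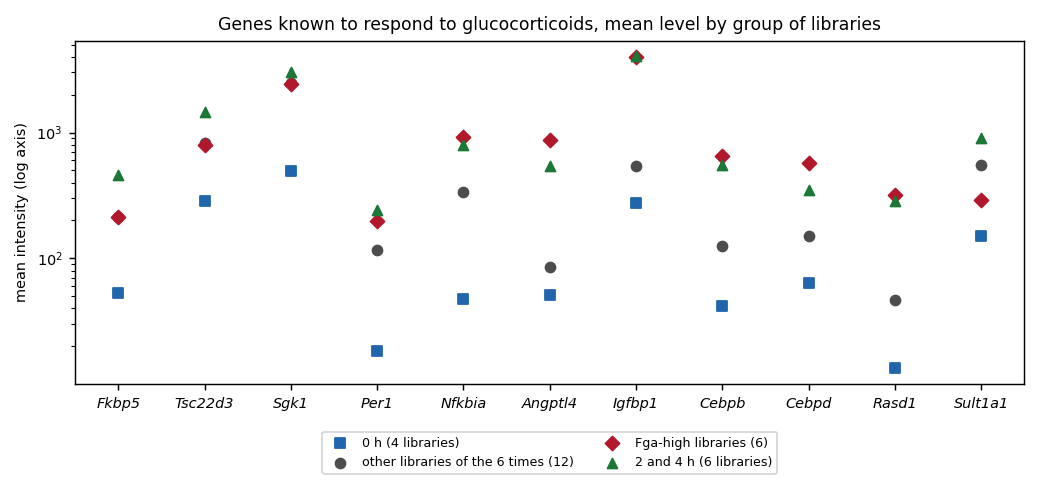
Mean intensity (log axis, mean of log2 values turned back) of 11 genes known to respond to glucocorticoids, at 0 h, in the other libraries of the 6 times, in the Fga-high libraries, and at 2 and 4 h. For Fkbp5, Tsc22d3 and Sgk1 the means of the Fga-high and other libraries lie close together (213 and 212 for Fkbp5). Those of Angptl4 and Igfbp1 lie apart (873 and 86.1, 4012 and 540).

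The remaining large increases were of mixed function. S100a9, a subunit of calprotectin made by neutrophils and monocytes, had 720, 382, 358, 774, 385 and 243 in order of time against 19.9 to 147 in the others, without overlap (2.95 ± 0.26, adjusted p = 5.22e-06; 1.08e-05 without the filter, which it passed only through the Fga-high libraries). Ubd, an interferon- and TNF-inducible ubiquitin-like modifier, had 574 to 3338 against 113 to 377 (2.4 ± 0.28). Gpx2, a glutathione peroxidase, differed by 2.34 ± 0.35, the basic leucine zipper repressor Nfil3 by 2.11 ± 0.3, and Gadd45g by 2 ± 0.34. All 20 of the largest increases were above both time-mates at all 6 times, as the naming rule required, and 263 probe sets were (2.76%).

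Decreases were smaller. G0s2, an inhibitor of the triglyceride lipase ATGL, had 90.4, 102, 62.6, 77.1, 17.6 and 218 in order of time against 111 to 1214 in the others (-2.33 ± 0.38, adjusted p = 0.000815). The groups overlapped across times, since at 1 h one of the others had 111, but the Fga-high library was the lowest at each time. Next came Septin4, a cytoskeletal GTPase (-1.35 ± 0.24), the clock output factor Dbp (-1.33 ± 0.26), the LIM protein Fhl2 (-1.33 ± 0.21) and the fatty acid desaturase Scd2 (-1.27 ± 0.18). Casr, the calcium-sensing receptor, differed by -1.26 ± 0.22, with 12.8 at 5 h against 119 and 113. Zfp354a, a zinc-finger gene of the kidney, had 71.9 to 519 against 221 to 978 (-1.25 ± 0.24). Tril, a Toll-like receptor interactor (-1.24 ± 0.21), the kinases Sgk2 (-1.23 ± 0.21) and Mapk4 (-1.18 ± 0.22), Anks4b, a scaffold of brush border microvilli (-1.22 ± 0.21), and Susd3 (-1.19 ± 0.22) followed. Of these 12, only Anks4b did not overlap between the groups, with 30.3 to 146 against 160 to 299. The share of all tested probe sets without overlap was not computed, neither here nor for the increases. In all, 226 probe sets were below both time-mates at all 6 times (2.37%).

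**Figure D4:**
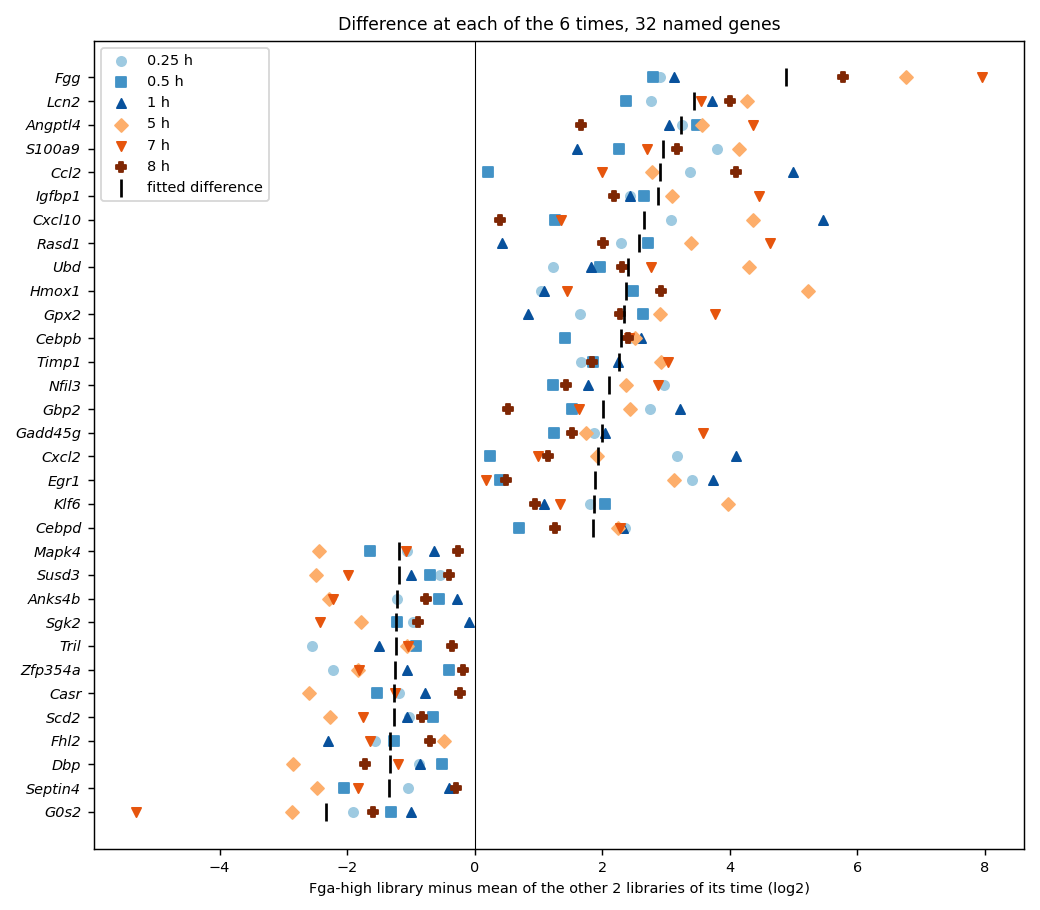
Fga-high library minus the mean of the other 2 libraries of its time (log2), for the 20 genes with the largest increases and the 12 with the largest decreases; each symbol is 1 time and the black bar is the fitted difference. Fgg ranges from 2.79 at 0.5 h to 7.96 at 7 h, while Egr1, Cxcl2 and Ccl2 lie near 0.2 to 0.4 at 0.5 h.

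Transporters of the distal nephron were lower in 6 of 18 cases and higher in 0, with a median of -0.28. At 0.25 to 1 h alone 0 of the 18 were lower (median -0.12), and at 5 to 8 h alone 8 were (median -0.45). Over all probe sets tested, the shares lower were 0.567% and 7.74%. Kcnj1, the potassium channel ROMK, differed by -0.99 ± 0.25, Aqp2, the vasopressin-regulated water channel, by -0.76 ± 0.22, Nr3c2, the mineralocorticoid receptor, by -0.65 ± 0.14 and Slc12a1, the sodium-potassium-chloride cotransporter NKCC2, by -0.6 ± 0.15. Without 5 h replicate 2, 1 member of the list was called. Of 22 proximal tubule transporters, 2 were higher and 1 lower (median -0.1), beside 6.1% higher and 6.79% lower over all probe sets tested. Among them, Slc13a1, a sulfate transporter, was at 0.75 ± 0.16 and Slc15a2, a peptide transporter, at -0.72 ± 0.15. With single libraries left out, 1 to 3 of this list were higher and 1 to 2 lower. Genes of gluconeogenesis were lower in 2 of 9 cases, Pck1 by -0.53 ± 0.13 and Mdh1 by -0.32 ± 0.09, and genes of fatty acid oxidation in 3 of 18. None of these 5 calls was left without 5 h replicate 2. At 0.25 to 1 h alone 0 members of either list were lower, and at 5 to 8 h alone 6 of 9 and 4 of 18 were. Early and late were terms of the same fit, and such counts, also for the distal nephron, do not test early against late. That difference, tested directly below, passed for 32 of 9518 probe sets.

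Smaller groups showed few calls, to be read beside the 6.1% higher and 6.79% lower over all probe sets tested. Of 14 hypoxia and glycolysis genes, 2 were higher and 1, Ankrd37, was lower (-0.85 ± 0.18). With single libraries left out, the higher count ran from 0 (without 1 h replicate 2) to 3. Clock genes split, with Nfil3 and Bhlhe40 (1.11 ± 0.27) higher and Dbp and Hlf (-1.08 ± 0.22) lower of 11. Of 14 extracellular matrix genes, 1 was higher and 1 lower, with 0 to 4 higher and 0 to 2 lower when single libraries were left out. Of 6 cell cycle genes Ccnd1, cyclin D1, was lower (-0.59 ± 0.16). The calls of Ccnd1 and Bhlhe40 were lost without 5 h replicate 2.

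Markers of other cell types were read over their whole lists. Neutrophil and macrophage markers had a summed level of 4085 to 6189 in the Fga-high libraries and 2794 to 4440 in the others, above both time-mates at 6 of 6 times. Of 14 tested, 5 were higher and 0 lower, or 4 of 12 without the 2 that passed the filter only through the Fga-high libraries. Among the 5 were S100a9, Cd14 (1.24 ± 0.2) and Fcgr3a (0.89 ± 0.17). The part of such cells in the chemokine and interferon results was not tested. The summed level of hepatocyte markers overlapped between the groups, at 2296 to 3586 against 2671 to 5641, and was above both time-mates at 0 of 6 times. Alb, the albumin gene, had 28.2 to 62.3 against 21.1 to 61.5. Of 8 hepatocyte markers tested, 0 were higher and 1, Cyp2e1, was lower (-0.56 ± 0.15), a call lost with any of 3 libraries left out.

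Endothelial markers gave 1 higher and 3 lower of 10, where 6.1% of all probe sets tested were higher and 6.79% lower. Emcn, endomucin, had 162, 138, 167, 211, 360 and 415 in order of time against 305 to 499.5 in the others (-0.85 ± 0.15), Plvap, a protein of fenestral diaphragms, differed by -0.99 ± 0.21, and Esam, an adhesion molecule, by 0.81 ± 0.15. Smooth muscle markers gave 2 lower of 6, both lost without 5 h replicate 2. Podocyte (5 tested), lymphocyte (2), adrenal (1) and erythroid (2) markers gave 0 calls. The 1 adipose marker tested was Lpl, lipoprotein lipase, which is also made by other cells and was higher by 1.39 ± 0.15.

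The early libraries (0.25, 0.5 and 1 h) and the late ones (5, 7 and 8 h) were also compared. As separate terms of a fit to all 18 libraries, the 3 early Fga-high libraries gave 182 probe sets higher (1.91%) and 54 lower (0.567%). That was 2.48% in all, with 1209 at an unadjusted p under 0.05 (12.7%). The 3 late ones gave 610 higher (6.41%) and 737 lower (7.74%), 14.2% in all, with 2660 at an unadjusted p under 0.05 (27.9%). The difference between both contrasts, tested directly, passed for 32 probe sets (0.336%), and 1090 had an unadjusted p under 0.05 (11.5%). This count depended on single libraries: it was 0 without 0.25 h replicate 2 and 176 without 8 h replicate 1.

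Among genes more increased late, Fgg differed by 2.94 early and 6.83 late (-3.89 ± 0.54 for early minus late, adjusted p = 0.0245). C3 differed by 0.99 and 3.17 (adjusted p = 0.0375). Tmbim1, a transmembrane protein, had 132.7, 131.9 and 76.3 in the early Fga-high libraries and 760.5, 1129 and 532 in the late ones, where the others had 180 to 218 (0.2 early, 1.9 late, adjusted p = 0.0258). Sectm1b and Clec4a3, a C-type lectin, differed by -0.03 and 2.02 and by -0.95 and 0.95 (adjusted p = 0.0375 and 0.0258). Clec4a3 thus lay on opposite sides of its time-mates early and late, and over all 6 times its difference was 0.0029 ± 0.28.

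Genes more increased early were Spry1, an inhibitor of receptor tyrosine kinase signalling, with 643, 435 and 486 in the early Fga-high libraries against 111 to 254.5 in the others (1.52 early, -0.1 late, adjusted p = 0.0277), Coq10b (1.08 and -0.46, adjusted p = 0.0311) and Ripk4, a kinase (1.05 and -0.35, adjusted p = 0.0277). Gnmt, which methylates glycine, and Gprc5c, an orphan receptor, differed mainly by being lower late, at -1.66 and -1.24 against 0.01 and 0.4 early (adjusted p = 0.0277 and 0.0311). Each of these 10 calls was lost when certain libraries were left out, from 4 of 18 for Fgg to 15 of 18 for C3, while the sign stayed.

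The 34 libraries of the other 11 times lay outside the comparison, and in them the association with the log2 level of Fga within each time was fitted. It gave 1 call of 9518 (0.0105%), Ankrd37 with a slope of -0.43 per log2 of Fga (adjusted p = 0.0094), and 534 probe sets had an unadjusted p under 0.05 (5.61%). Of the 581 probe sets higher in the Fga-high libraries, 427 had a positive slope (73.5%), against 52.4% of all tested, and of the 646 lower ones 437 had a negative slope (67.6%). None of the 581 passed by itself, and 1 of the 646 did. Median slopes were 0.05 and -0.02. Within-time variation of Fga in these libraries came to 43.2% from 6 h and 19% from 2 h. Without 2 h replicate 2, 359 of the 581 and 342 of the 646 had those signs, so the lower ones were then close to evenly split. The share over all tested probe sets was not computed for that fit. In 2 h replicate 2 Alb stood at 793, against 14.3 to 73.1 in the other libraries at 2, 4 and 12 to 72 h.

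The markers had slopes of 0.8 for Cxcl1, 0.65 ± 0.18 for Fgg, 0.55 ± 0.15 for Lcn2 and 0.53 for Havcr1, with unadjusted p of 0.0133, 0.00111, 0.00128 and 0.00103, and none passed the adjustment (limma adjusted p of Fgg 0.566). All 13 tested interferon genes had a positive slope, and 0 of 18 genes of fatty acid oxidation did. Other lists with many higher calls were mixed. Positive slopes numbered 10 of 20 for glucocorticoid-induced genes, 6 of 10 for interleukin-6 and STAT3 and 8 of 13 for NF-kappaB, against 52.4% of all tested. None of these counts by list, those of interferon and fatty acid oxidation genes included, was repeated without 2 h replicate 2. How far they rest on that library is therefore not known. Angptl4 and Igfbp1 had slopes of 0.16 ± 0.13 and 0.16 ± 0.1, and Cebpb -0.06 ± 0.13. A slope is per log2 of Fga, so its size cannot be set directly against their differences between the groups.

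**Figure D5:**
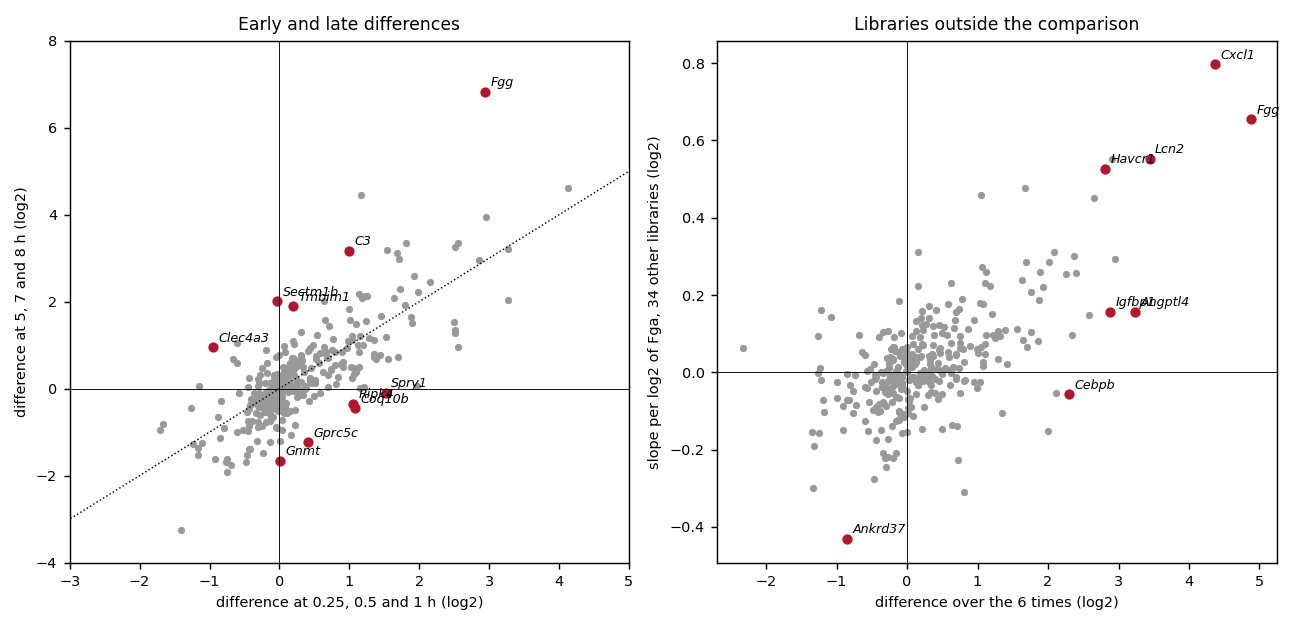
Left, the difference of Fga-high libraries from their time-mates at 0.25 to 1 h (x axis) and 5 to 8 h (y axis), both log2, for tested members of the lists and named genes; the dotted line is equality and red points are the genes whose early and late differences were tested apart. Right, the difference over all 6 times (x axis, log2) and the slope per log2 of Fga in the 34 libraries of the other times (y axis); Cxcl1, Fgg, Lcn2 and Havcr1 lie at 0.53 to 0.8 and Cebpb at -0.06.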

How the data were processed

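Total RNA of rat kidney was measured on Affymetrix arrays. Probe sets carry deposited intensities, linear in scale; the authors scaled each array, since after leaving out the lowest and highest 2% of values every array mean lay between 150.03 and 150.04. The sources used here do not give how probe brightness was summarised. The second array type was not used, and of the 2 arrays of 5 h replicate 1 (correlation 0.914) only array b was used.

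Values were taken as log2(intensity + 7.553), the pseudocount being the 10th percentile, which understates changes of dim probe sets. Of 15923 probe sets, 57 controls and the 2 of Fga were left out, and 9518 with a mean log2 level of at least 5.904 (intensity 52.35, the 40th percentile) were tested. Probe sets were named through the gene identifiers of the platform annotation (12748), its accessions (2) or its own symbols (33); 312 with several symbols and 2771 with none were not named. Tests used limma 3.58.1 in R 4.3.3 (time as a block, moderation with a mean-variance trend, Benjamini-Hochberg adjustment over all tested probe sets) and were tested on simulated data. Precision is limited by the number of arrays.

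The members, gene lists and tests were chosen with earlier results of these data known. Named genes were the 20 largest increases and 12 largest decreases past an adjusted p of 0.05 with the Fga-high library above or below both time-mates at all 6 times (the brightest such probe set of a gene), the 5 largest each way for early against late, the 4 markers, and the largest passing members of each list; other list members are named where a count or a comparison turns on them. Alternatives covered the pseudocount, the filter, quantile normalization, array weights, robust moderation, a replicate block, the other 5 h array, all 52 libraries in 1 fit, the Fga threshold, other Fga terms and each library left out; leaving out 0.25 h and 5 h was chosen after seeing the data. Groups of libraries were formed by Fga, as the labels do not name them.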

Additional observations from a re-analysis of the deposited data

Results flagged for a closer look

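Among the 34 genes checked for an outlying time, 3 had 1 difference far from the other 5, where chance marks about 1 in 20: Cebpb at 0.5 h (1.42), Gadd45g at 7 h (3.58) and Klf6 at 5 h (3.97). The tested differences between early and late Fga-high libraries, early minus late, were 1.67 for Gnmt, 1.64 for Gprc5c, 1.62 for Spry1, 1.53 for Coq10b and 1.4 for Ripk4. They were -3.89 for Fgg, -2.18 for C3, -2.05 for Sectm1b, -1.9 for Clec4a3 and -1.7 for Tmbim1.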

How the results depend on the processing

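No difference of the largest changes, the markers or the genes named for early against late changed sign under an alternative that was run. No called list member changed sign with a single library left out. The signs of other calls were not followed. The differences of Fkbp5, Tsc22d3 and Sgk1, which lie near 0, crossed it with single libraries left out (-0.14 to 0.12, -0.14 to 0.04 and -0.11 to 0.09). Over the 18 single libraries left out, 347 to 639 probe sets were higher, 202 to 723 lower, and 0 to 176 differed between early and late. For the other times, each of the 34 libraries was left out in turn, and 0 to 2 probe sets were called. A positive slope was found for 359 to 442 of the 581 higher ones, and a negative one for 342 to 487 of the 646 lower ones. The lower count was 397 with array weights, 419 with the replicate block, 1079 with all 52 libraries in 1 fit and 178 without 5 h, which also gave 328 higher. Calls between early and late numbered 20 with array weights, 21 with the replicate block, 15 with the other array of 5 h replicate 1 and 177 with all 52 libraries. At the other times calls numbered 2 with 4 times the pseudocount, 3 without the filter, 10 with the other Fga probe set, and 0 with array weights, the replicate block, or without 2 and 4 h. Replicate numbers did not pair the samples: 19 of 45 same-numbered pairs had a correlation above 0.1 (median 0.02). Of the genes named as the largest changes, Egr1 lost its call without 5 h (1.65) and Tril with a threshold of 500 on Fga (-0.83); the cause was not tested.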
